A study of Homo sapiens with 12 samples.

Results

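The 7 genes described here handle acid and lactate at the cell surface and in the cytosol. They are the carbonic anhydrases CA9, CA12 and CA2, the bicarbonate transporter SLC4A7, the lactate carriers SLC16A1 and SLC16A3, and BSG, the chaperone of both carriers. They were taken by name as a set of related function, with no threshold on a measured value. All assembled transcripts that matched an annotated transcript of these genes or shared a splice junction with one were used, 94 of 286562 such transcripts in the data, and their levels were summed to the 7 genes of 56537 gene names. In 75 of the 94 transcripts a level above 0 was seen in at least 1 library, and 29 passed the study's filter of a level above 0.5 in at least 3 libraries. All 7 genes passed the same filter, which CA9 would not have passed without its 24 h libraries, since 1 earlier library was above 0.5.

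The study measured polyadenylated RNA in HCT116 cells, an established human colorectal carcinoma line, by strand-specific paired-end sequencing. Cells under 21% oxygen gave the 0 h group, and cells kept at 1% oxygen for 1 h, 2 h or 24 h gave the other groups, with 3 libraries labelled as biological replicates in each. All groups are the same line in the same medium, and hypoxia was started a day after plating. It is not stated whether the 0 h and 24 h cells had been in culture equally long, so that time in culture and time in hypoxia cannot be told apart. Levels are in FPKM, fragments per kilobase of transcript scaled to the mapped fragments of the library, which allows genes to be compared per length.

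Cells in low oxygen make ATP from glucose by glycolysis and export lactate together with protons. Monocarboxylate transporters carry the pair across the membrane. MCT1 (SLC16A1) also serves lactate uptake, MCT4 (SLC16A3) is suited to export, and both need basigin (BSG) to reach the surface. Carbonic anhydrases interconvert carbon dioxide with bicarbonate and a proton. CA9 and CA12 do so on the outer face of the membrane and CA2 in the cytosol, while SLC4A7 brings in sodium and bicarbonate and so buffers the cell interior. The transcription factor HIF, which is stabilised in hypoxia, binds a short core sequence, ACGTG or GCGTG, and CA9 is a textbook target.

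The sequences before the starts of CA9, CA12, SLC16A3 and BSG are shown because they let the start sites be set beside the RNA measured from them. They come from RefSeq promoter windows of 300 bases, 250 before and 50 after each start, which were placed on GRCh37 (hg19), the build of the study, by exact match. Only bases before the start that no annotated exon of the gene covers are printed, on the strand of the gene, with matches to ACGTG or GCGTG on either strand (CACGT or CACGC on the opposite strand) in capitals.
CA9, chr9:35673675-35673924, plus strand: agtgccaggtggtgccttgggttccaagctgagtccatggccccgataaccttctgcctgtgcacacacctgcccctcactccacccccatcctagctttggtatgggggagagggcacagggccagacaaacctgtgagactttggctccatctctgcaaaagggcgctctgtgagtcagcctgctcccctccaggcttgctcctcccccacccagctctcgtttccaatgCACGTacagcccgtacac
CA12, chr15:63674046-63674295, minus strand: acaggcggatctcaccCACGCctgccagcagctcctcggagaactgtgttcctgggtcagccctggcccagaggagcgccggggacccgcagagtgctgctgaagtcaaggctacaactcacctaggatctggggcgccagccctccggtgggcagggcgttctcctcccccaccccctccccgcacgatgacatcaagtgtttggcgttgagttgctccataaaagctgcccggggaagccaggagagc
SLC16A3 upstream start, chr17:80186061-80186272, plus strand: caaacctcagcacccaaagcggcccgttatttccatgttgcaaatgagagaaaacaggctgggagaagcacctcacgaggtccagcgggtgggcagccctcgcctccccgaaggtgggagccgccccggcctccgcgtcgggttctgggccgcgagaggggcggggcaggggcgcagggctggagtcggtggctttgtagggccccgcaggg
SLC16A3 downstream start, chr17:80186668-80186917, plus strand: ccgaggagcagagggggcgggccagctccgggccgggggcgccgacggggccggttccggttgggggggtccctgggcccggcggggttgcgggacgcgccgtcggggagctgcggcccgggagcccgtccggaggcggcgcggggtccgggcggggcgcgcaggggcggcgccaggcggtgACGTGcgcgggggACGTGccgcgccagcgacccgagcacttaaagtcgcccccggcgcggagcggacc
BSG main start, chr19:572346-572528, plus strand: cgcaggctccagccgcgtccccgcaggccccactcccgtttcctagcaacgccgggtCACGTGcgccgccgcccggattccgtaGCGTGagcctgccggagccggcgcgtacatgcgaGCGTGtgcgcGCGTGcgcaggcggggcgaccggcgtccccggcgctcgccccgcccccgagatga
The CA9 window held 1 match, which began 18 bases before the start of transcript ENST00000378357. The window of the SLC16A3 downstream start held 2 matches, 68 and 55 bases before it, and that of the upstream start held 0. Of 3 further SLC16A3 windows 1 held 3 matches, 1 held 1 and 1 held 0, and a second window each of BSG and SLC4A7 held 0. The CA12 window held 2 matches, 1 of them after the start, and the window of the main BSG start held 6, among them a CACGTG that counts on both strands. The main SLC4A7 window held 3. Of all 35116 promoter windows, 48.4% held at least 1 match and 21.4% held ACGTG itself on either strand, so that a match is common and is a description of the letters only. For CA2 and SLC16A1 no promoter is shown.

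At 0 h the 7 genes spanned more than 3 orders of magnitude. BSG had the highest mean level at 298 ± 11.0 FPKM (SD, n = 3), followed by SLC16A3 at 158 ± 7.22, SLC16A1 at 86.5 ± 7.59, CA2 at 21.4 ± 0.714, SLC4A7 at 10.6 ± 1.20, CA12 at 1.16 ± 0.0751 and CA9 at 0.0790 ± 0.0578. The ranges of neighbours in this order did not overlap. At 24 h SLC16A3 at 288 ± 15.9 FPKM stood beside BSG at 262 ± 34.2, CA2 beside SLC4A7, and CA9 beside CA12, and within each of these pairs the ranges overlapped.

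**Figure D1:**
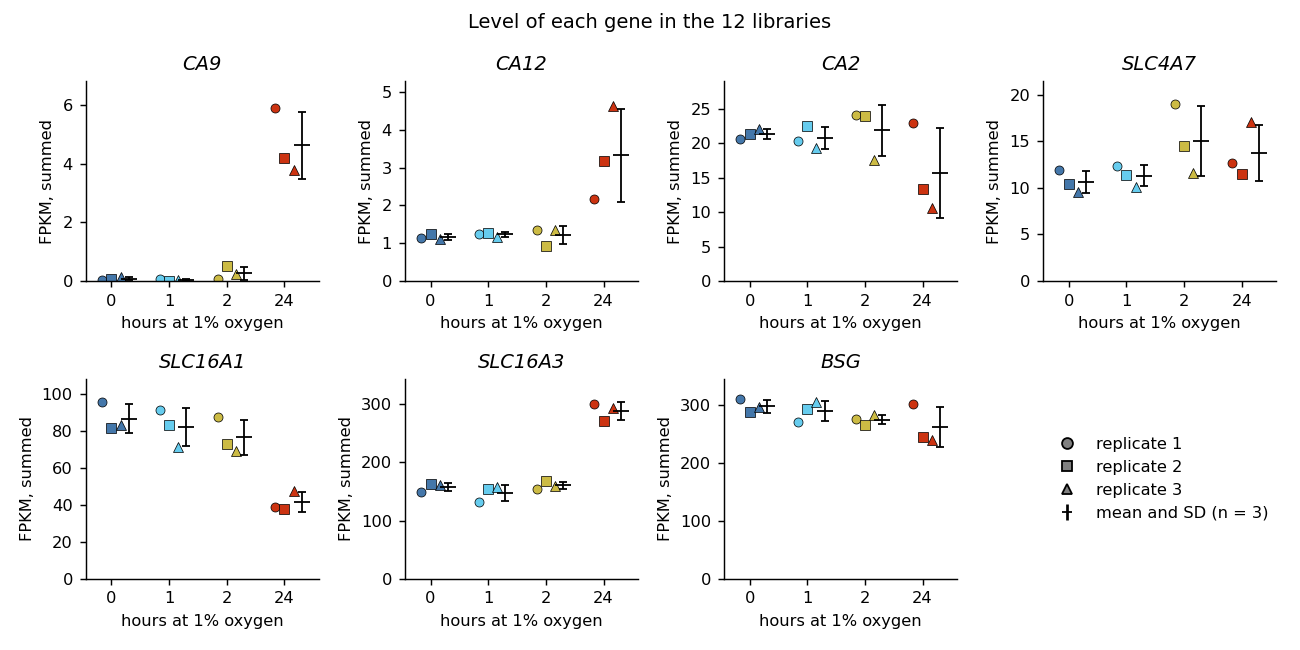
Level of each gene in FPKM, summed over its transcripts, against hours at 1% oxygen; each symbol is 1 library, marked by replicate number, and bars give the mean and SD (n = 3). CA9, CA12 and SLC16A3 lie above all earlier libraries at 24 h and SLC16A1 lies below them, while the CA2, SLC4A7 and BSG ranges overlap those of 0 h.

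CA9 and CA12 rose and SLC16A1 fell at 24 h, and SLC16A3 was higher by less than the 2-fold that a call required. The limma test used log2(FPKM + 0.5) of 16680 genes in all 12 libraries, and a gene was called at an absolute log2 fold change above 1 with a Benjamini-Hochberg adjusted p under 0.01. At 24 h relative to 0 h, 2 of the 7 genes were called higher and 1 lower, where 8.76% of all genes tested were called higher and 9.51% lower. Of the 2, CA9 passed the filter through its 24 h libraries, where it is high, so the count is a description. The median log2 fold change of the 7 genes was 0.34 and that of all genes tested -0.05. At 1 h relative to 0 h, 0 of the 7 were called by limma, where 0.006% of all genes were called. An unadjusted p under 0.05 was seen for 0 of the 7 and for 769 of all 16680 genes. At 2 h 0 of the 7 were called, where 0.018% of all genes were called. Such an unadjusted p was then seen for 1 of the 7, SLC4A7, and for 2547 of all 16680 genes. Between same-numbered libraries of 0 h and 2 h, CA9 and SLC4A7 were higher at 2 h in 3 of 3 pairs, SLC16A1 and BSG lower in 3 of 3, and CA12, CA2 and SLC16A3 higher in 2 of 3. With the replicate number as a block, 0 of the 7 were called at 1 h or at 2 h. In bulk RNA, a change in the number of cells that hold a transcript and a change in its amount per cell cannot be told apart.

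**Figure D2:**
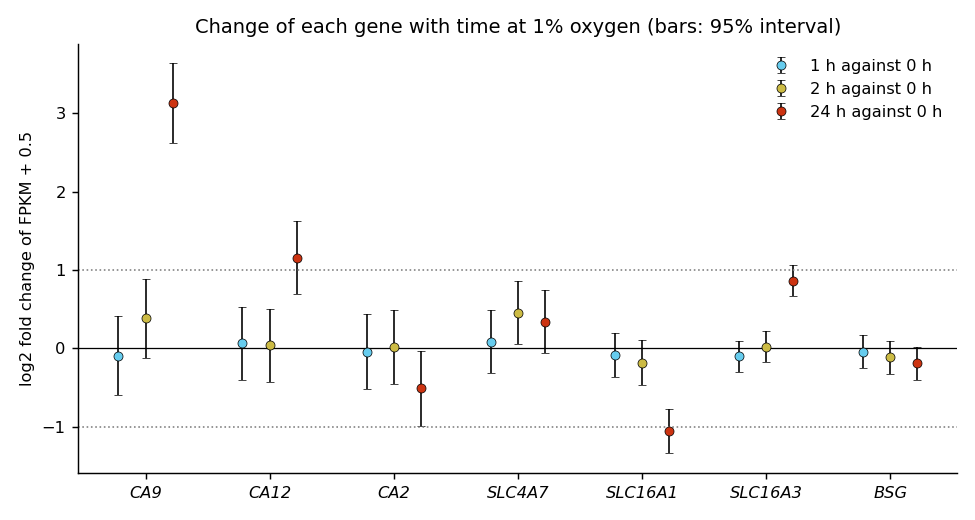
Log2 fold change of FPKM + 0.5 relative to 0 h for each gene at 1, 2 and 24 h, from the limma fit over 12 libraries; points are estimates, bars are 95% intervals and dotted lines mark the fold a call requires. At 24 h CA9 is at 3.13, CA12 at 1.16 and SLC16A1 at -1.06, and SLC16A3 lies just inside the upper line at 0.86.

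CA9 (ENSG00000107159, chr9:35673925-35681156, plus strand), the membrane carbonic anhydrase, was near the limit of detection before 24 h. It measured 0.0249, 0.0722 and 0.140 FPKM at 0 h, 0.0789, 0 and 0.0472 at 1 h, 0.0712, 0.513 and 0.236 at 2 h, and 5.90, 4.19 and 3.77 at 24 h. All 3 libraries of 24 h lay far above the other 9, and the mean of 4.62 ± 1.13 FPKM was 58.5 times that of 0 h. The 0 h mean rests on few fragments, and without 0 h replicate 3 the ratio was 95.2. In whole fragments, recovered from the steps of the FPKM values, the gene rested on 1, 5 and 10 fragments at 0 h, 2, 0 and 3 at 1 h, 2, 4 and 11 at 2 h, and 212, 214 and 226 at 24 h. The 0 of 1 h replicate 2 allows up to 3 fragments, which is 0.0547 FPKM for the 1618-base transcript at that depth, with counting error alone. The limma estimate at 24 h was a log2 fold change of 3.13 (SE 0.23, adjusted p = 1.0e-06), which the added 0.5 FPKM keeps below the change in the levels themselves. As CA9 entered the test through the group where it is high, its call is given as a description, and with no filter on low values, over 29623 genes, the adjusted p was 7.8e-06. Between 24 h and 2 h the difference was 2.75 (SE 0.23, adjusted p = 3.0e-06).

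At 2 h CA9 was not called, with a log2 fold change of 0.38 (95% interval -0.13 to 0.89, limma adjusted p = 0.455). The 0.513 FPKM of 2 h replicate 2 came from 4 fragments on a transcript of 329 bases, and the full-length transcript was at 0 in all 3 libraries of 2 h. An assembled form of 1525 bases that shares junctions with the full-length transcript held 7.95 fragments in 2 h replicate 3 and 5 in 0 h replicate 2. Summed over the transcripts that passed the filter alone, the 2 h estimate turned to -0.14. At 24 h the annotated full-length transcript ENST00000378357, of 11 exons, carried the gene with 4.36, 4.19 and 3.73 FPKM and a log2 fold change of 3.06 (SE 0.21, limma adjusted p = 8.1e-06). It too passed the filter through its 24 h libraries, so its call is a description, and with no filter the adjusted p was 1.7e-05. A 697-base form near ENST00000493245, annotated without a coding sequence, added 1.54 FPKM in replicate 1 but 0 and 0.0357 in the others.

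CA12 (ENSG00000074410, chr15:63613577-63674045, minus strand), a membrane anhydrase of the same kind, was steady until 2 h and higher at 24 h. It measured 1.13, 1.24 and 1.10 FPKM at 0 h, 1.25, 1.28 and 1.17 at 1 h, and 1.34, 0.936 and 1.35 at 2 h. At 24 h its libraries were at 2.17, 3.16 and 4.62, all above the 9 others, with the highest over 2 times the lowest. The mean rose 2.87-fold, with a log2 fold change of 1.16 (SE 0.21, limma adjusted p = 0.00064). Without 24 h replicate 3 the change was 0.92 (adjusted p = 0.0019), under the fold of a call. The fragments behind it numbered 115 to 219 at 0 h and 246 to 647 at 24 h.

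The 2744-base CA12 transcript near ENST00000344366 was the 1 form of the gene that passed the filter. Its levels of 0.781, 0.976 and 0.671 FPKM at 0 h and 1.44, 2.05 and 3.36 at 24 h did not overlap, and it rose by 1.04 on the log2 scale (SE 0.28, limma adjusted p = 0.018). The call was lost without 24 h replicate 3 (0.77, adjusted p = 0.065), without 0 h replicate 1 (adjusted p = 0.051) and without 0 h replicate 3 (adjusted p = 0.060). It was also lost in a fit of the 0 h and 24 h libraries alone (limma adjusted p = 0.065) and with TPM over all transcripts (0.27, limma adjusted p = 0.432). Longer forms of 6413 and 6380 bases, near ENST00000178638 and ENST00000344366, held much of the rest of the gene and ranged from 0 to 0.735 FPKM among the 24 h libraries, so that the split between forms is uncertain.

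CA2 (ENSG00000104267, chromosome 8, plus strand), the cytosolic anhydrase, was the most abundant of the 3 before 24 h and remained so. It measured 20.7, 21.4 and 22.1 FPKM at 0 h, 20.3, 22.5 and 19.4 at 1 h, 24.1, 24.0 and 17.6 at 2 h, and 23.0, 13.3 and 10.7 at 24 h. At 24 h replicate 1 stood above every 0 h library while replicates 2 and 3 stood below them, and the groups overlapped. The log2 fold change was -0.51 (95% interval -0.99 to -0.03, limma adjusted p = 0.066) and was not called. Without 24 h replicate 1 it was -0.82 (adjusted p = 0.00087), and without replicate 3 it was -0.28 (adjusted p = 0.265). Transcript ENST00000285379 held between 96.8% and 100% of the gene at the 4 time points on average.

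SLC4A7 (ENSG00000033867, chr3:27414212-27525911, minus strand), the sodium and bicarbonate cotransporter, varied most at 2 h. It measured 11.9, 10.4 and 9.57 FPKM at 0 h, 12.3, 11.4 and 10.1 at 1 h, 19.0, 14.5 and 11.6 at 2 h, and 12.7, 11.5 and 17.1 at 24 h. Replicate 3 of 2 h lay within the range of 0 h. At 2 h the log2 fold change was 0.46 (95% interval 0.06 to 0.86), with an unadjusted p of 0.029 and a limma adjusted p of 0.274 (0.185 with the replicate number as a block), and it was 0.28 without 2 h replicate 1. At 24 h it was 0.34 (95% interval -0.06 to 0.74, adjusted p = 0.138).

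Of 29 SLC4A7 transcripts, 22 were above 0 in at least 1 library, 6 passed the filter and 0 were called at 24 h. The full-length ENST00000455077 of 7739 bases held 3.34, 2.51 and 2.84 FPKM at 0 h, 7.62, 4.32 and 4.08 at 2 h, and 1.95, 2.74 and 5.54 at 24 h. A retained-intron form of 735 bases near ENST00000465487 stayed between 2.68 and 4.99 FPKM in all 12 libraries and held 33.1% ± 5.86 of the gene at 0 h and 30.3% ± 10.5 at 24 h.

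SLC16A1 (ENSG00000155380, chr1:113454469-113500215, minus strand), which encodes MCT1, fell at 24 h. It measured 95.2, 81.2 and 83.1 FPKM at 0 h, 91.3, 83.0 and 71.1 at 1 h, 87.1, 73.0 and 69.2 at 2 h, and 38.5, 37.9 and 47.6 at 24 h. All 24 h libraries lay below the other 9. The log2 fold change was -1.06 (SE 0.13, limma adjusted p = 2.9e-05), close to the fold of a call, and was -0.99 (adjusted p = 0.00025) without 0 h replicate 1. Against 2 h the difference was -0.88 (SE 0.13, adjusted p = 0.00014) and under that fold, but past it with class = transcripts, those that match an annotated transcript, alone (-1.20, adjusted p = 0.0036).

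A pair of transcripts from 1 start-site group held almost all of SLC16A1, and both fell. ENST00000369626 of 3910 bases went from 52.1, 36.8 and 45.6 FPKM to 13.8, 19.6 and 31.6, a log2 fold change of -1.10 (SE 0.29, limma adjusted p = 0.016). An assembled form of 2265 bases that shares splice junctions with ENST00000538576 went from 41.9, 43.2 and 36.3 FPKM to 24.4, 17.8 and 15.5, a log2 fold change of -1.07 (SE 0.22, adjusted p = 0.0040). At 24 h the forms ranked the libraries in opposite order, and the longer one lost its call without 0 h replicate 1 (adjusted p = 0.059) and without 24 h replicate 1 (adjusted p = 0.053). The longer one also lost it with no filter on low values (limma adjusted p = 0.062).

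SLC16A3 (ENSG00000141526, chr17:80175810-80219005, plus strand), which encodes MCT4, was close to 2-fold higher at 24 h. It measured 149.7, 163 and 161 FPKM at 0 h, 132, 154 and 157 at 1 h, 155, 168 and 159 at 2 h, and 301, 270.5 and 293 at 24 h. The 24 h libraries lay well above the other 9. The mean was 1.82 times that of 0 h, and the log2 fold change of 0.86 (95% interval 0.67 to 1.06, limma adjusted p = 8.9e-06) was under the fold of a call. Against 2 h the difference was 0.84 (SE 0.09, adjusted p = 1.4e-05).

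The ratio of SLC16A3 to SLC16A1 within a library does not depend on how libraries are scaled. It was 1.57, 2.00 and 1.94 at 0 h, 1.45, 1.85 and 2.21 at 1 h, 1.78, 2.30 and 2.30 at 2 h, and 7.82, 7.13 and 6.15 at 24 h. The 24 h ratios were all above the other 9 and had a mean of 7.04 ± 0.838 against 1.84 ± 0.234 at 0 h. The difference at 24 h, 1.94 on the log2 scale, gave an exact two-sided permutation p of 0.1, the smallest that 3 against 3 libraries can give.

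The leading SLC16A3 transcripts of 2 start sites had different estimates at 24 h, and as overlapping forms share reads, the split between them is uncertain. ENST00000582743 begins at chr17:80186918, 621 bases downstream of the start of ENST00000392341, and both end at position 80197962. ENST00000582743 measured 107, 110.3 and 110.5 FPKM at 0 h and 240.1, 210.5 and 229 at 24 h, and rose by 1.05 on the log2 scale (SE 0.10, limma adjusted p = 3.5e-05). ENST00000392341 measured 28.9, 41.3 and 37.8 FPKM at 0 h and 34.1, 33.2 and 33.1 at 24 h, within the range of 0 h, with a log2 fold change of -0.09 (95% interval -0.39 to 0.22, adjusted p = 0.690). Minor forms were not all alike, with 0.60 for ENST00000583444 of the downstream start and 0.51 and 0.61 for ENST00000583237 and ENST00000581642 of the upstream start, none of them called by limma (adjusted p = 0.101, 0.337 and 0.534).

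Summed over start-site groups as the authors' assembly gives them, the downstream group of 8 transcripts had 114 ± 2.53 FPKM at 0 h and 237 ± 14.1 at 24 h, and its share of the gene went from 72.2% ± 1.75 to 82.3% ± 0.422. The upstream group of 5 had 40.4 ± 5.53 and 39.3 ± 1.32 FPKM, and its share went from 25.5% ± 2.42 to 13.7% ± 0.712. At 1 h and 2 h the upstream share was 26.6% ± 0.687 and 21.4% ± 2.07. A further group of 1 transcript, an assembled form of 7549 bases that shares junctions with ENST00000392341, went from 2.36, 1.41 and 0.543 FPKM to 9.24, 6.05 and 5.27 and rose by 2.01 on the log2 scale (SE 0.36, limma adjusted p = 0.0021).

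**Figure D3:**
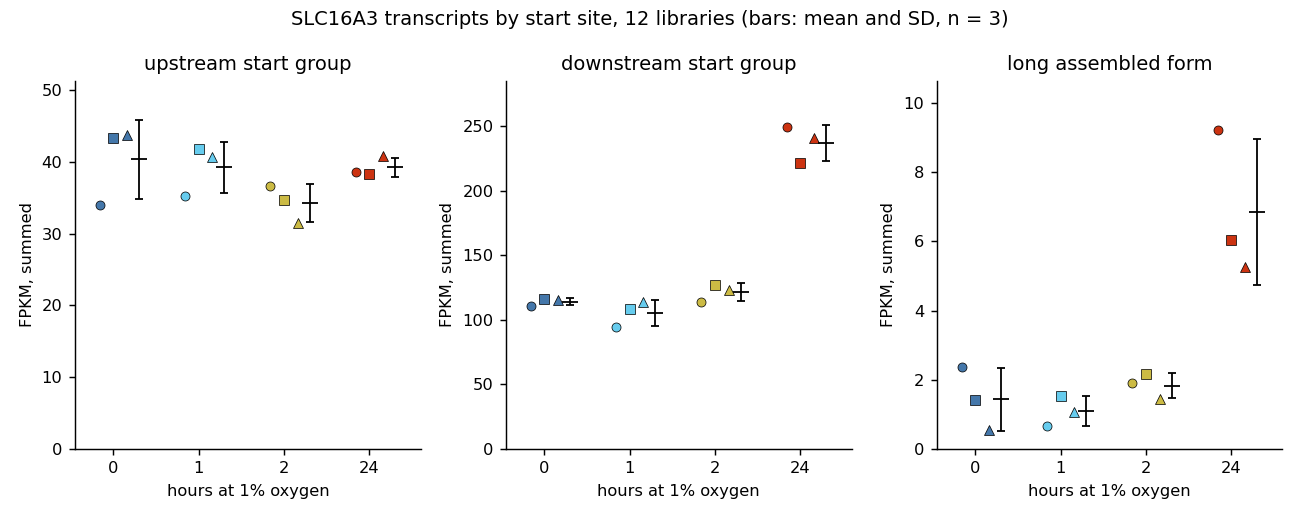
FPKM of SLC16A3 transcripts summed by start-site group against hours at 1% oxygen, with a scale of its own for each group; symbols are libraries, with circles, squares and triangles for replicates 1 to 3, and bars give the mean and SD (n = 3). The downstream group goes from 114 to 237 FPKM on average at 24 h, while the upstream group is at 40.4 at 0 h, 34.3 at 2 h and 39.3 at 24 h.

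The ratio of each transcript to the rest of its gene was tested with limma over 57084 transcripts, of which 11% were called at 24 h with an adjusted p under 0.05. Of the 27 member transcripts that entered, 2 were called, both of SLC16A3. The ratio of ENST00000392341 fell by 1.15 on the log2 scale (SE 0.22, adjusted p = 0.0094) and that of ENST00000582743 rose by 0.72 (SE 0.17, adjusted p = 0.025). As these 2 forms hold most of the gene, the fall of the first and the rise of the second are not independent results. The first call was kept without any 1 library, and the second was lost without 0 h replicate 2 or 3 and without 24 h replicate 1 or 2 (adjusted p 0.056 to 0.079). Neither was called by limma's diffSplice (adjusted p = 0.121 and 0.696) or in a fit of the 6 libraries of 0 h and 24 h alone (adjusted p = 0.066 and 0.121).

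BSG (ENSG00000172270, chr19:571277-583494, plus strand), the chaperone that MCT1 and MCT4 share, showed the smallest change of the set at 24 h. It measured 309.6, 288 and 296 FPKM at 0 h, 270.5, 293 and 304 at 1 h, 276, 266 and 282 at 2 h, and 301, 245 and 240.2 at 24 h. Replicate 1 of 24 h lay within the range of 0 h and replicates 2 and 3 below it. The log2 fold change at 24 h was -0.19 (95% interval -0.40 to 0.02, limma adjusted p = 0.117), and -0.30 (adjusted p = 0.011) without that replicate. ENST00000353555, whose start has 6 motif matches in its window, held 95.9% of the gene at 24 h and had a log2 fold change of -0.19 (adjusted p = 0.172). The minor ENST00000545507, from the start site further upstream, fell from 1.58, 2.11 and 1.21 FPKM to 0.600, 1.06 and 0.464 (log2 fold change -0.83, SE 0.26, adjusted p = 0.033), and this call was lost without 0 h replicate 1 or 2 and without 24 h replicate 1 or 3 (adjusted p 0.075 to 0.122). It was also lost in a fit of the 0 h and 24 h libraries alone (limma adjusted p = 0.111).

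Over all transcripts of the 7 genes, 7 of the 29 that passed the filter were called higher at 24 h and 3 lower, where 11.3% of all transcripts tested were called higher and 15.3% lower. The median log2 fold change of the 29 was 0.51 against -0.09 for all transcripts. The 7 were 1 each of CA9 and CA12 and 5 of SLC16A3, 3 of which were minor forms of the downstream start, ENST00000578684, ENST00000578574 and ENST00000579572, with log2 fold changes of 1.05, 1.04 and 1.08. The last of the 3 and ENST00000578574 are annotated as retained-intron transcripts, and overlapping forms share reads, so that their split is uncertain. Of the 7, CA9 ENST00000378357 and ENST00000578684 would not have passed the filter without the 24 h libraries, where they are high, so the count is a description. The call of ENST00000578684, at most 1.11 FPKM in any library, was lost with no filter on low values (limma adjusted p = 0.106), with the replicate number as a block (limma adjusted p = 0.056), without 0 h replicate 2 or 3, without any 1 library of 2 h and without 24 h replicate 2 or 3 (adjusted p 0.059 to 0.155). That of ENST00000578574 was lost without 0 h replicate 1 and without 24 h replicate 2 or 3 (adjusted p 0.075 to 0.089). The count was 6 without 0 h replicate 1 and 6 without 24 h replicate 3. At 1 h and 2 h 0 of the 29 were called by limma, with 0 and 3 at an unadjusted p under 0.05. Of all 62162 transcripts, 3150 at 1 h and 5723 at 2 h had such a p.

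Between 24 h and 2 h, CA9 and CA12 were called higher and 0 genes lower, where 7.44% of all genes tested were called higher and 7.28% lower. CA12 differed by 1.12 (SE 0.21, limma adjusted p = 0.00095) and fell under the fold without 24 h replicate 3 (0.88) and without 2 h replicate 2 (0.996). The contrasts at 1 h, 2 h and 24 h share the 0 h libraries.

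Other genes of acid and lactate handling were counted in 5 lists of 77 genes, of which 46 could be tested. At 24 h relative to 0 h, 6 of the 46 were called higher and 3 lower, beside 8.76% and 9.51% of all genes, and the median log2 fold change of the 46 was -0.19. Of the 6, LDHD passed the filter through its 24 h libraries alone, so the count is a description. Among the other carbonic anhydrases 1 of 4 rose, CA11, a member without catalytic activity, from 6.21 ± 1.46 to 17.5 ± 1.84 FPKM (log2 fold change 1.44, limma adjusted p = 0.0051), a call lost without any 1 of the 6 libraries of 0 h and 24 h. It was also lost with no filter on low values (limma adjusted p = 0.019), with class = transcripts alone (0.027) and with TPM over all transcripts (0.205). Among the other bicarbonate transporters 1 of 5 rose, the anion exchanger SLC26A6, from 15.0 ± 0.587 to 34.0 ± 4.84 FPKM. Among the sodium/proton exchangers 1 of 6 rose, SLC9A7, an exchanger of the Golgi, from 3.16 ± 0.751 to 11.8 ± 2.92 FPKM.

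Of 11 other monocarboxylate carriers, their partner EMB and lactate dehydrogenases, 2 were called higher and 1 lower. LDHA, the lactate dehydrogenase subunit that favours lactate formation, rose from 857 ± 46.4 to 2831 ± 388 FPKM (log2 fold change 1.72, limma adjusted p = 4.0e-07). LDHD, the mitochondrial D-lactate dehydrogenase, passed the filter through its 24 h libraries alone, with 0.251 ± 0.114 FPKM at 0 h and 1.29 ± 0.267 at 24 h, and its call, which that entry favours, was kept with no filter on low values (limma adjusted p = 0.00023) and lost at a pseudocount of 1 (0.87). The orphan carrier SLC16A14 fell from 6.67 ± 0.722 to 2.17 ± 0.605. Of 20 subunits of the V-ATPase, the proton pump of lysosomes, 1 rose and 2 fell by the thresholds of a call. By adjusted p alone 9 of the 20 were lower and 1 higher, where 23.2% of all genes were lower and 18.3% higher, and 16 of the 20 estimates were below 0, as were 52.8% of those of all genes. The median log2 fold change of the subunits was -0.27 against -0.05 for all genes, and it was below that of all genes under each of the 3 other scalings as well. ATP6V1C2 rose from 0.336 ± 0.00532 to 2.45 ± 0.151 FPKM, while ATP6V0D1 fell from 27.1 ± 0.814 to 11.6 ± 4.05 and ATP6V0A2 from 7.52 ± 0.396 to 3.29 ± 0.619. The ATP6V0A2 call was lost without 24 h replicate 2 (-0.99) and at a pseudocount of 1 (-0.997), that of SLC9A7 with class = transcripts alone, those that match an annotated transcript (limma adjusted p = 0.049), and those of SLC9A7, LDHA and SLC26A6 with TPM over all transcripts (0.85, 0.84 and 0.29).

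**Figure D4:**
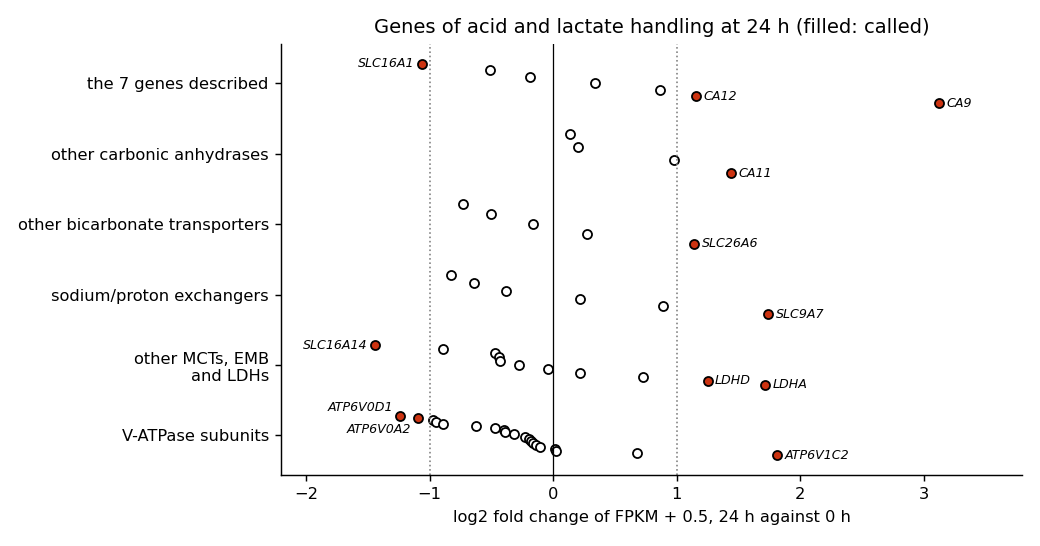
Log2 fold change of FPKM + 0.5 at 24 h relative to 0 h for each gene tested, by list; filled points are genes called by limma and carry their names, open points were not called, and dotted lines mark the fold of a call. In each list of other genes 1 to 3 genes are called, and ATP6V1C2 at 1.82, SLC9A7 at 1.74 and LDHA at 1.72 are the furthest to the right of them.

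The genes whose pattern over the 12 libraries was most like that of a member were found by Pearson's r of log2(FPKM + 0.5), a description in which all points share the 4 time points. For CA9 they were GRAMD1B (r = 0.992) and BNIP3P1 (r = 0.988), a pseudogene that can take reads of BNIP3. For CA12 they were CD68 (r = 0.984), which went from 2.01 to 10.2 FPKM on average, and ERMP1 (r = 0.980). SLC16A1 was most like RRP1B (r = 0.995) and BLMH (r = 0.993), and SLC16A3 most like FAM129B (r = 0.995) and PKD1L2 (r = 0.990). CA2 was most like PVRL1 (r = 0.976) and RAC3 (r = 0.968), BSG like METTL7B (r = 0.964) and RHOG (r = 0.956), and SLC4A7 like TULP4 (r = 0.934) and RB1CC1 (r = 0.921). Between members, CA9 and SLC16A3 had r = 0.976, CA9 and SLC16A1 r = -0.961, and CA12 and CA2 r = -0.854.

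The libraries differed in depth, with 27.8 M to 55.7 M fragments (M, 1e6) implied by the FPKM steps, the lowest values in a 0 h and a 24 h library. Of 9 markers of colorectal epithelium, 6 were above 1 FPKM in all libraries, among them EPCAM and CDX2, and KRT20, VIL1 and CDX1 were below 1 throughout. The endothelial markers PECAM1, CDH5 and VWF were below 1 FPKM in all libraries. So were 3 of 4 leukocyte markers, PTPRC at most 0.0095 FPKM, and 4 of 5 fibroblast markers. The summed leukocyte list was at 1.78 to 2.31 FPKM at 0 h and 6.88 to 14.2 at 24 h mostly through CD68, and the fibroblast list at 1.85 to 2.16 and 5.81 to 8.84 mostly through COL1A1. Both lists were thus higher at 24 h, as CA9 and CA12 were, and their part in those results was not tested.

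The scaling between libraries bears on the directions. Values were used as deposited, and the median log2 fold change of all genes at 24 h was -0.05. Rescaled to TPM over all transcripts the median was -0.78, with 209 genes called higher and 3995 lower in place of 1462 and 1586. On that scale SLC16A3 was at -0.01 and SLC4A7 at -0.47, so that their direction turned, CA12 was at 0.35 and no longer called, and CA2 at -1.28 was called lower. Relative to the median of all genes on the same scale, SLC16A3 was at 0.78, CA12 at 1.13, CA9 at 2.60 and SLC16A1 at -1.12. SLC4A7 was at 0.31, CA2 at -0.495 and BSG at -0.28 on this measure, beside 0.39, -0.46 and -0.14 on the deposited scale. The turned directions and the CA2 call thus go with the shift of all genes. When transcripts under 300 bases were left out of the TPM sum, the median was -0.13 and the members called were those of the deposited scale. CA9 was called under every alternative tried. Where the filter was kept it entered through its 24 h libraries, so these calls are a description.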

How the data were processed

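Polyadenylated RNA of 12 HCT116 libraries, 3 at each of 0, 1, 2 and 24 h, was sequenced. The authors aligned paired reads to hg19 with Mapsplice, built transcript models sample by sample in Cufflinks, joined these to the Ensembl models and deposited FPKM per transcript. Per the labels, CASAVA 1.8.2 was also used. Class codes, gene names, start-site groups and lengths are from the deposited annotation table.

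FPKM of transcripts that match (class =) or share a junction with (class j) an annotated transcript was summed per gene name, without rescaling. Genes and transcripts with FPKM above 0.5 in at least 3 libraries were tested with limma 3.58.1 in R 4.3.3 (lmFit, eBayes with trend, two-sided) on log2(FPKM + 0.5), with 1 spread for all 12 libraries and Benjamini-Hochberg adjustment over 16680 genes, 62162 transcripts or 57084 ratios. Gene calls took the study's thresholds and transcript calls an adjusted p under 0.05. Fold changes on this scale understate changes of low genes. Scripts were tested on simulated data with planted log2 changes of 1.5 and 2 at 24 h. The gene test recovered 91.3% and 98.5% of them, the transcript test 41.1% and 63.8%, and the ratio test 29.9% and 42.4%. A transcript or ratio that was not called may therefore still have changed. The authors ran a count test on gene counts, which are not used here, so no count model was fitted.

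Fragments per library were inferred from 1-fragment steps of FPKM at loci with 1 transcript of 1500 to 8000 bases, where all values up to 10 fragments were whole within 0.1. The limit given for a count of 0 covers counting error only, and intervals are limma's, from the spread between libraries. Same-numbered libraries of 0 h and 2 h deviated together in all 3 pairs (r 0.129 to 0.362), as did those of 0 h and 1 h (0.0954 to 0.340). Those of 1 h and 2 h, which are not compared here, did so too (0.117 to 0.428). In each of these comparisons 3 of 3 libraries were most alike with their own number, and they were taken as paired from the data. For 0 h and 24 h (-0.00079 to 0.242) this held for 1 of 3 libraries and for 2 h and 24 h (-0.0032 to 0.129) for 2 of 3, and these were not taken as paired.

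Positions and transcript types are from GENCODE release 44 on GRCh37, which held 67 of 73 reference transcripts of the genes. Promoter sequences are from RefSeq (GRCh38.p14 table) for 5 of the 7 genes, matched exactly to GRCh37. Members named were all 7 genes, their called or leading transcripts, the genes called in each list and the 2 genes most like each member. The members and lists were chosen with earlier results of these data known. Alternatives covered pseudocount, filters, transcripts summed, scaling, fit, thresholds and leaving out each library.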

Additional observations from a re-analysis of the deposited data

Results flagged for a closer look

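The difference from 0 h of CA9 and CA12 was larger at 24 h than at 2 h. As both share the 0 h libraries, this is the contrast of 24 h with 2 h given above, and time in hypoxia and time in culture cannot be told apart in it. For CA9, which passed the filter through its 24 h libraries and whose call is therefore a description, it was larger by 2.75 on the log2 scale (limma, SE 0.23, adjusted p = 3.0e-06), with all 3 libraries of 24 h above all 3 of 2 h. For CA12 it was larger by 1.12 (SE 0.21, adjusted p = 0.00095), again with no overlap of the libraries.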

How the results depend on the processing

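At 24 h relative to 0 h the alternatives left 2 to 4 of the 7 genes called, and CA9 was called in all 24 of them that estimate a fold (log2 3.13 as reported, 1.82 to 4.75). Where the filter was kept, CA9 entered through its 24 h libraries, so these calls are a description. CA12 (0.35 to 1.39) lost its call at pseudocount 1 (0.96), with TPM over all transcripts (0.35) and without 24 h replicate 3 (0.92). SLC16A1 (-1.90 to -0.99) lost it with median-of-ratios scaling (-0.996) and without 0 h replicate 1 (-0.99). Leaving out 1 library gave 2 to 3 genes at 24 h against 0 h, 0 to 0 at 1 h and 2 h, 1 to 2 at 24 h against 2 h, 8 to 12 of the other pathway genes, 6 to 13 transcripts and 1 to 3 ratios. At 24 h against 2 h, 1 gene was called at pseudocount 1, from transcripts past the filter and with TPM over all transcripts, 3 with class = transcripts alone, where SLC16A1 was added (-1.20), and 4 by adjusted p alone. At 24 h relative to 0 h, adjusted p alone gave 23 of the other pathway genes, where 18.3% of all genes were higher and 23.2% lower. Transcripts called were 6 with 0 h and 24 h libraries alone and 5 with TPM over all transcripts. Ratios called were 17 of 75 without a filter, where 17340 of all 169461 were called higher and 21638 lower. With 0 h and 24 h libraries alone 0 of 27 ratios were called, where 1191 of all 57084 were called higher and 1227 lower.

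Of the values of single genes and transcripts under the alternatives, 1085 kept direction and call, 26 changed sign, all from small or uncalled differences, 69 lost a call and 4 gained one. With TPM over all transcripts, CA12 was at -0.27 (1 h) and -0.495 (2 h), SLC4A7 at -0.49 (1 h), -0.55 (2 h), -0.47 (24 h) and 0.083 (24 h against 2 h), SLC16A3 at -1.06 (2 h) and -0.0072 (24 h), CA2 at -1.01 (2 h), and BSG at 0.14 (24 h against 2 h). That scale shifts all genes, with medians of -0.56 (1 h), -0.94 (2 h), -0.78 (24 h) and 0.12 (24 h against 2 h). On that scale 9 genes of the whole table were called higher and 19 lower at 1 h, and 14 and 526 at 2 h, where 1 and 3 were called higher on the deposited scale. With class = transcripts alone SLC16A1 was at 0.0077 (1 h) and 0.092 (2 h). With transcripts past the filter alone CA12 was at -0.16 (1 h) and CA9 at -0.14 (2 h). With 1 library left out, 8 more values crossed 0, CA2 from -0.104 to 0.0015 at 1 h and from -0.057 to 0.165 at 2 h, SLC16A1 from -0.166 to 0.012 and BSG from -0.081 to 0.0040 at 1 h, CA12 from -0.025 to 0.159 and SLC16A3 from -0.015 to 0.049 at 2 h, SLC4A7 from -0.285 to 0.062 at 24 h against 2 h, and ENST00000392341 from -0.236 to 0.018 at 24 h. The cause of these changes was not tested.

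With the replicate number as a block, 0 of the 7 genes were called at 2 h, where 4 genes of the whole table were called higher in place of 3. At 24 h 3 of the 7 were called, ENST00000578684 lost its call and no other named gene or transcript did, and 1499 genes were called higher and 1607 lower over the whole table. CA9 before 24 h rests on at most 11 fragments a library, which limits the precision of its values at 1 h and 2 h.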
